A study of Mus musculus with 36 samples.

Results

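Whole bladders of mice given corticosterone (CORT) were compared with those of mice given vehicle at the 24 h time label. The comparison takes in 6 of the 36 libraries of the study, 3 per treatment, and they were chosen by their treatment and time labels alone. The CORT group at 24 h consisted of C57BL/6 mice after bilateral adrenalectomy that received CORT, the main glucocorticoid of mice, in the inactive phase of their day. The vehicle group at 24 h consisted of C57BL/6 mice after the same operation that received vehicle only. Both groups therefore lacked their adrenal glands, and the vehicle libraries stand for animals without adrenal hormones rather than for intact ones. Neither time zero, the number of doses, nor the age and sex of the mice is given in the labels. Total RNA was sequenced, and the other 30 libraries cover both treatments at 4, 8, 12, 16 and 20 h. The replicate 3 libraries take their time from their titles, since they carry no time tag. Whether the replicates of a group come from different mice is not given either. The p-values therefore refer to the spread between libraries of a treatment and time, pooled over all 36 libraries, part of which may be technical.

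Glucocorticoids act through the glucocorticoid receptor, a ligand-bound transcription factor that induces genes such as Fkbp5 and Tsc22d3 and lowers the expression of many genes of immunity. The secretion of corticosterone is itself daily, and it is one of the signals that set the clocks of peripheral organs. In that clock the activators ARNTL (BMAL1) and CLOCK or NPAS2 bind E-boxes and switch on the genes of their own repressors, the PER, CRY and REV-ERB (Nr1d1, Nr1d2) proteins, together with output factors of the PAR bZIP family such as DBP and TEF. MHC class II molecules, which antigen-presenting cells such as macrophages, dendritic cells and B cells carry, show peptides to CD4+ T cells.

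Values below are normalized read counts, that is reads per gene that the authors quantile normalized and that were placed here on 1 scale for all 36 libraries. The mean total count was between 9591304 and 12311337 reads by treatment and replicate number, and 31694 to 32330 of the 49585 features had no read in a library at 24 h. Pearson's r between the 6 libraries, across features and on the log2 scale, was 0.976 to 0.988, with a mean of 0.983 for pairs of the same group and 0.983 for pairs of different groups. The label of bladder was checked against markers: all 15 urothelial and all 15 smooth muscle contractile genes were present, and 8 of 11 genes of the male accessory glands were at 0 in all 6 libraries. At 4, 8, 16 and 20 h the replicate 2 libraries of both treatments, 8 in all, carry one name in the full tables and another in the authors' tables of selected genes. The names of the full tables were used, and no 24 h library is affected. Some results that rest on the 8 are also given without them, and all other values that draw on the other times include them. Some libraries stood apart from the rest of their group. Vehicle replicate 1 had summed adipocyte markers of 9415, against 3308 to 4192 in the other 5 libraries, and summed erythroid and globin transcripts of 6815, against 1421 to 2499.5. CORT replicate 1 had the lowest urothelial sum, 71350.2 against 94460.4 to 126131 in the others, and the highest smooth muscle sum, 588275 against 427448 to 518748. In such bulk samples, fewer cells of a type and less RNA per cell cannot be told apart.

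CORT and vehicle bladders differed in few single genes at 24 h. Of 17867 features tested, 6 passed limma's test at an adjusted p of 0.05, which is 0.0336%, and all 6 were lower in CORT. They were the MHC class II genes H2-Ab1, H2-Eb1 and Cd74, the immune signalling gene Themis2, the collagen gene Col6a4 and the calcium-binding gene Chp2. No feature was called higher by limma, although 510 features, or 2.85%, were higher at an unadjusted p of 0.05 and 618, or 3.46%, were lower, together 1128 or 6.31%. The median log2 difference of all features tested was 0.02. The count of called features rests on the libraries and on the fit. It was 0 in limma on the 6 libraries alone, where 1128 features had an unadjusted p under 0.05, and 0 without CORT replicate 3, vehicle replicate 1 or vehicle replicate 3, where 1059, 922 and 977 had one. Weighting libraries by their agreement with their group gave 206 called features, 82 higher and 124 lower. Requiring a mean of at least 10 over all libraries gave 17 called features, 2 higher and 15 lower.

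**Figure D1:**
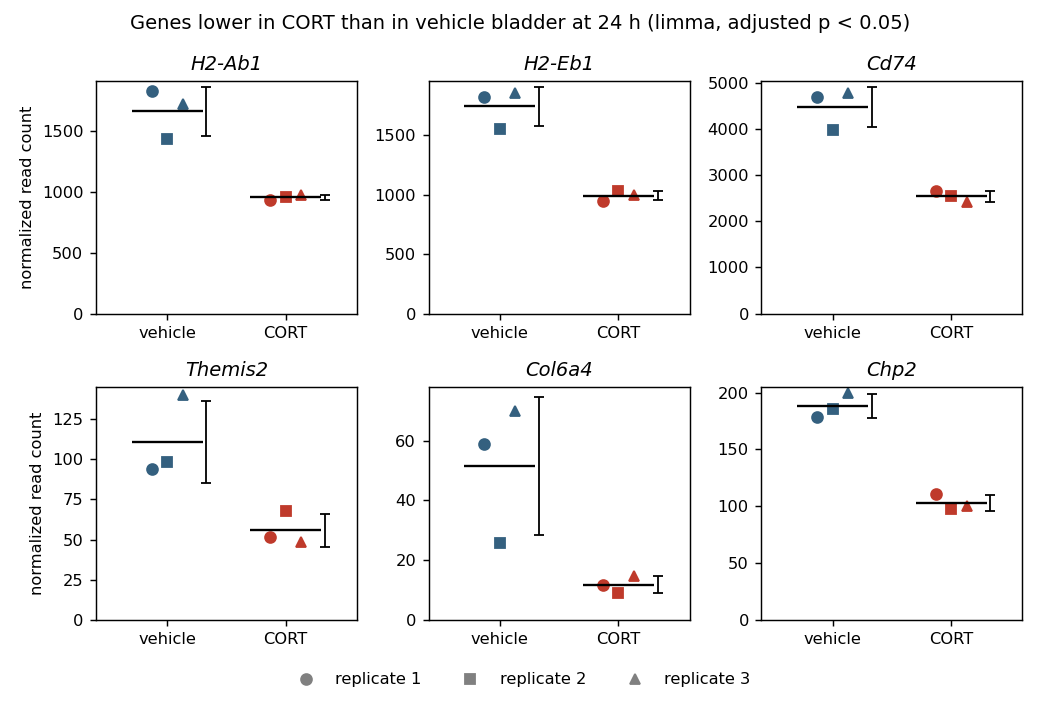
Normalized read counts (y axes, from 0) of the 6 genes called lower in CORT at 24 h, for the 3 vehicle (blue) and 3 CORT (red) libraries, with symbols for the replicate number; horizontal lines are group means and bars are 1 SD (n = 3). In each of the 6 panels all CORT libraries lie below all vehicle libraries, and for H2-Ab1 the CORT libraries span 932 to 972.

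MHC class II genes differed evenly between the groups. H2-Ab1 (mm10 chr17:34257689-34269419, plus strand), which encodes the beta chain of I-A, stood at 932, 963 and 972 normalized reads in CORT replicates 1, 2 and 3 and at 1829.8, 1441 and 1727 in vehicle replicates 1, 2 and 3. The CORT libraries were nearly equal to each other, and all were below the lowest vehicle library. The means were 956 ± 21.04 and 1666 ± 201 (SD, n = 3 each), a log2 difference of -0.79 ± 0.12 (SE, adjusted p = 0.00727). H2-Eb1 (chr17:34305867-34316674, plus strand), which encodes the beta chain of I-E, stood at 949.9, 1028 and 999.9 in CORT and 1822, 1553 and 1851 in vehicle, and fell by 0.81 on the log2 scale (SE 0.13, adjusted p = 0.0144). Cd74 (chr18:60803848-60812652, plus strand) encodes the invariant chain, which escorts class II molecules and blocks their groove until they reach the endosome. It stood at 2650.3, 2545 and 2423 in CORT and 4679.5, 3969 and 4768 in vehicle, a difference of -0.81 ± 0.13 (adjusted p = 0.0144). For all 3 genes the groups did not overlap. The 3 calls were lost without vehicle replicate 1, the library rich in adipocyte and globin transcripts (differences -0.72, -0.77 and -0.78, adjusted p = 0.0887, 0.1 and 0.1 in the same order), and likewise without CORT replicate 3 or vehicle replicate 3. That of H2-Eb1 was also lost without CORT replicate 1 (adjusted p = 0.0735), and those of H2-Eb1 and Cd74 on the authors' own scale of each treatment (adjusted p = 0.0662 and 0.0579). On the 6 libraries alone the adjusted p was 0.222, 0.186 and 0.189 for H2-Ab1, H2-Eb1 and Cd74, and over all alternatives it ran from 0.00148, 0.00223 and 0.00148 to 0.514, 0.514 and 0.514. Over all alternatives the log2 difference of H2-Ab1 ranged from -0.90 to -0.70, that of H2-Eb1 from -0.91 to -0.74 and that of Cd74 from -0.90 to -0.73.

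The other members of the class II list were also lower. All 8 listed genes passed the filter, 3 were called, all 8 had an unadjusted p under 0.05 in the lower direction (3.46% of all features), and in 7 of 8 every CORT library was below every vehicle library (4.84% of all features). The list median was -0.73. Named here after their values were seen, H2-Aa, the alpha chain of I-A, stood at 1290.5, 1286 and 1234 in CORT and 2134, 1628 and 1988 in vehicle (-0.58 ± 0.14, adjusted p = 0.162), and H2-DMa, a subunit of the peptide editor H2-DM, at 85.9, 93.5 and 93.8 and 156, 136 and 185 (-0.79 ± 0.17, adjusted p = 0.0792). Ciita, which encodes the transactivator of class II genes, was the member whose groups overlapped, with 20.1, 47.4 and 33.1 in CORT and 52.1, 42.6 and 60.6 in vehicle. Each CORT library showed the lower level: measured against the vehicle mean, the list median was -0.79, -0.66 and -0.69 in replicates 1, 2 and 3. Within each replicate number, CORT minus vehicle had a list median of -0.84, -0.53 and -0.84. The summed counts of the 8 genes were 6278 to 6455 in CORT and 9432 to 11302 in vehicle.

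Set against the other times, the gap at 24 h lay mostly on the vehicle side. Mean H2-Ab1 in vehicle was 1154, 1159, 1112, 945 and 1266 at 4, 8, 12, 16 and 20 h and 1666 at 24 h. In CORT it was 1111, 893, 987, 1018 and 1127 at the earlier times and 956 at 24 h. All 3 vehicle libraries at 24 h were above all 15 other vehicle libraries for H2-Ab1 (lowest 1441 against 1379) and for Cd74 (3969 against 3876), whereas the CORT libraries at 24 h lay within the range of the other CORT times. For H2-Eb1, 1 of the 15 other vehicle libraries, with 1633, was above the lowest vehicle library at 24 h, 1553. Over the 8 class II genes, the median of 24 h minus the mean of the other 5 times was 0.46 in vehicle, with 8 of 8 above, and -0.11 in CORT, with 2 of 8 above. Those shifts within a treatment were not tested. The test of whether the 24 h difference departs from the mean difference at the other 5 times was not passed by H2-Ab1 (-0.66 ± 0.13, adjusted p = 0.0719), Cd74 (-0.72 ± 0.15, adjusted p = 0.119) or H2-Eb1 (-0.71 ± 0.15, adjusted p = 0.123). The list median of CORT minus vehicle was -0.06, -0.34, -0.13, 0.14, -0.08 and -0.73 from 4 to 24 h. Without the 8 libraries named in 2 ways it was -0.00086, -0.23, 0.29 and -0.16 at 4, 8, 16 and 20 h, and the vehicle means of H2-Ab1 were 1139, 1147, 845 and 1233.

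Class II promoters are known for a conserved module that ends in a Y box, a reversed CCAAT sequence bound by NF-Y. The upstream bases of H2-Eb1 and H2-Aa (RefSeq, GRCm38.p6, 5′ to 3′ up to the base before the start site) are shown because they are the class II members with a Y box match, with the letters CTGATTGG in capitals.
H2-Eb1 (chr17:34305767-34305866, plus strand): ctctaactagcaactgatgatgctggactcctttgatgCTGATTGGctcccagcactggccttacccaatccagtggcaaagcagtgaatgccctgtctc
H2-Aa (chr17:34287824-34287923, minus strand): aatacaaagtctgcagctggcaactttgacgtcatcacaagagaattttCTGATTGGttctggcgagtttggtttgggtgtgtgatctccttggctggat
Searched on both strands of 300-base windows from 250 bases before to 50 after the start, CTGATTGG was found in 2 of the 5 class II genes with a promoter entry and in 4.10% of 32851 windows of all genes. A gene counted if any of its windows held the match, whereas the share over all is of single windows. No entry was matched for H2-Ab1, Cd74 or Ciita. The match begins 62 bases before the start of H2-Eb1 and 51 bases before that of H2-Aa. The cAMP response element TGACGTCA was found in 1 of the 5, H2-Aa, and in 1.79% of all windows.

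The remaining called genes act in other processes. Themis2 (chr4:132781843-132796387, minus strand), a signalling protein of B cells and macrophages, stood at 51.7, 67.6 and 48.2 in CORT and 94.0, 98.5 and 140.2 in vehicle (-0.97 ± 0.17, adjusted p = 0.0232). Chp2 (chr7:122219496-122222824, plus strand) encodes a calcineurin-like EF-hand protein that binds sodium-proton exchangers. It stood at 111, 97.4 and 99.9 in CORT and 179, 186 and 199.5 in vehicle (-0.87 ± 0.16, adjusted p = 0.0232). Neither gene's groups overlapped, and the spread within each group was small for Chp2 (SD 7.21 and 10.5). Here too the vehicle side stood apart in time, with Chp2 at 179 to 199.5 against 63.7 to 157 at the other 5 times. The lower level in CORT was not particular to 24 h. CORT minus vehicle for Chp2 was -0.97, -0.20, 0.26, 0.72 and 0.23 at 4, 8, 12, 16 and 20 h. Limma's test of its 24 h difference against their mean was not passed (-0.88 ± 0.17, adjusted p = 0.0719). Col6a4 (chr9:105989454-106096783, minus strand), a chain of the microfibrillar collagen VI, stood at 11.7, 8.94 and 14.6 in CORT and 59.0, 25.6 and 69.9 in vehicle (-1.95 ± 0.35, adjusted p = 0.0232). Its vehicle libraries were scattered, and vehicle replicate 2 was the lowest of them. For Col6a4 the CORT libraries at 24 h were below all 15 CORT libraries of the other times, though narrowly, with a highest value of 14.6 against 15.1. Its CORT minus vehicle difference was 0.37, 0.08, -0.91, -1.02 and -0.95 at 4, 8, 12, 16 and 20 h. Col6a4 did not pass limma's test of the 24 h difference against the mean of the other 5 times (-1.46 ± 0.38, adjusted p = 0.437). The 3 genes were not called on the 6 libraries alone (adjusted p = 0.483, 0.133 and 0.459 for Themis2, Chp2 and Col6a4). Without the 8 libraries of other times that are named in 2 ways, which enter the estimate of the spread, Chp2 and Col6a4 were not called either (adjusted p = 0.152 and 0.153). Their adjusted p over all alternatives ranged from 0.00162 to 0.61, from 0.00148 to 0.605 and from 0.00325 to 0.514. Leaving out any 1 of the 6 libraries ended 1 or more of the 3 calls. Col6a4 is overlapped by Gm24631 and Gm47575 on the opposite strand and H2-Eb1 by Gm20513, and the strand setting of the counting is not given in the sources used here.

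Macrophage genes, of cells that carry class II molecules, had negative differences, and none passed the test. Of 14 macrophage genes 13 were tested, 8 had an unadjusted p under 0.05 in the lower direction (3.46% of all features), 9 did not overlap (4.84% of all features, lower), and the median was -0.40. Adgre1, the F4/80 antigen, stood at 341, 359 and 323 in CORT and 448, 556 and 513 in vehicle (-0.56 ± 0.14, adjusted p = 0.21). Csf1r, the receptor for the macrophage growth factor CSF1, stood at 1145, 1087 and 1124 and 1412, 1675 and 1677 (-0.50 ± 0.13, adjusted p = 0.234). In both genes the lowest vehicle library was above the highest CORT library. Summed macrophage counts were 7754 to 8593 in CORT and 10009.5 to 11635 in vehicle, with none of the markers at 0 in all 6 libraries. The part of macrophage content in the class II difference was not tested. Cd163, a glucocorticoid-responsive scavenger receptor of macrophages and a member of the anti-inflammatory feedback list, was 445, 413 and 391 in CORT and 461, 718.6 and 944 in vehicle (-0.71 ± 0.27, adjusted p = 0.6).

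T and NK cell genes were expressed at a low level throughout. All 17 were tested, 7 had an unadjusted p under 0.05 in the lower direction (3.46% of all features), 7 did not overlap (4.84%), and the median was -0.83, against -0.09 for the mean difference at the other 5 times. Trac, the constant region of the T cell receptor alpha chain, stood at 1.89, 4.64 and 6.03 in CORT and 21.2, 10.4 and 20.6 in vehicle (-1.86 ± 0.40, adjusted p = 0.0762). Il2rb, the beta chain of the receptors for IL-2 and IL-15, stood at 17.2, 20.97 and 25.7 and 36.8, 36.5 and 67.8 (-1.06 ± 0.26, adjusted p = 0.168). These are low counts, and the sums of the whole list were only 108 to 152 in CORT and 203 to 298 in vehicle. Among the leukocyte genes with the smallest p that were not called, Itgal, the alpha chain of the integrin LFA-1, stood at 44.5, 45.8 and 56.9 in CORT and 110.1, 79.4 and 98.9 in vehicle (-0.95 ± 0.19, adjusted p = 0.0611). Csf2rb, the shared beta chain of the receptors for GM-CSF, IL-3 and IL-5, stood at 114, 102 and 107 and 214.6, 152 and 191 (-0.77 ± 0.16, adjusted p = 0.0678). Ptpn22, a phosphatase that limits signalling from antigen receptors, stood at 12.2, 13.2 and 8.81 and 26.2, 25.3 and 39.4 (-1.32 ± 0.27, adjusted p = 0.0702), and its difference departed from the mean of the other times by -1.61 ± 0.30 (adjusted p = 0.0598). Plbd1, a phospholipase B-like protein of myeloid granules, stood at 85.3, 139 and 154 and 269.8, 217 and 259 (-1.01 ± 0.20, adjusted p = 0.0674). The rule that named these 4 genes required groups that do not overlap.

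Other lists of immunity did not move one way. B and plasma cell genes (8 of 10 tested) had a median of -0.16, with 4 higher and 4 lower. Ighm, the heavy chain of IgM, was 109, 104 and 118 in CORT and 374, 182 and 172 in vehicle (-1.04 ± 0.50, adjusted p = 0.785). Jchain, which joins IgM and IgA into polymers, was 3.08, 0 and 4.56 and 35.9, 12.9 and 7.42 (adjusted p = 0.839). In both genes vehicle replicate 1 was the highest library. Interferon response genes had a median of -0.09 over 18 genes and chemokines -0.13 over 18 of 20. Cxcl14, a chemokine of epithelia and stroma, was 987, 1141 and 2493 in CORT and 2722, 4371 and 5284 in vehicle (-1.49 ± 0.43, adjusted p = 0.308), and Ccl5, which T cells secrete, 5.22, 6.03 and 6.25 and 13.3, 15.4 and 18.7 (adjusted p = 0.683). Among inflammatory cytokines and Ptgs2, 9 of 12 tested, the median was -0.18. Ptgs2, the inducible cyclooxygenase that makes prostaglandins, had the smallest p of that list and was higher in CORT, 182, 266 and 291 against 97.1, 93.6 and 122 (1.22 ± 0.36, adjusted p = 0.33). Neutrophil genes were tested for 4 of 10 members, with a median of -0.15.

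**Figure D2:**
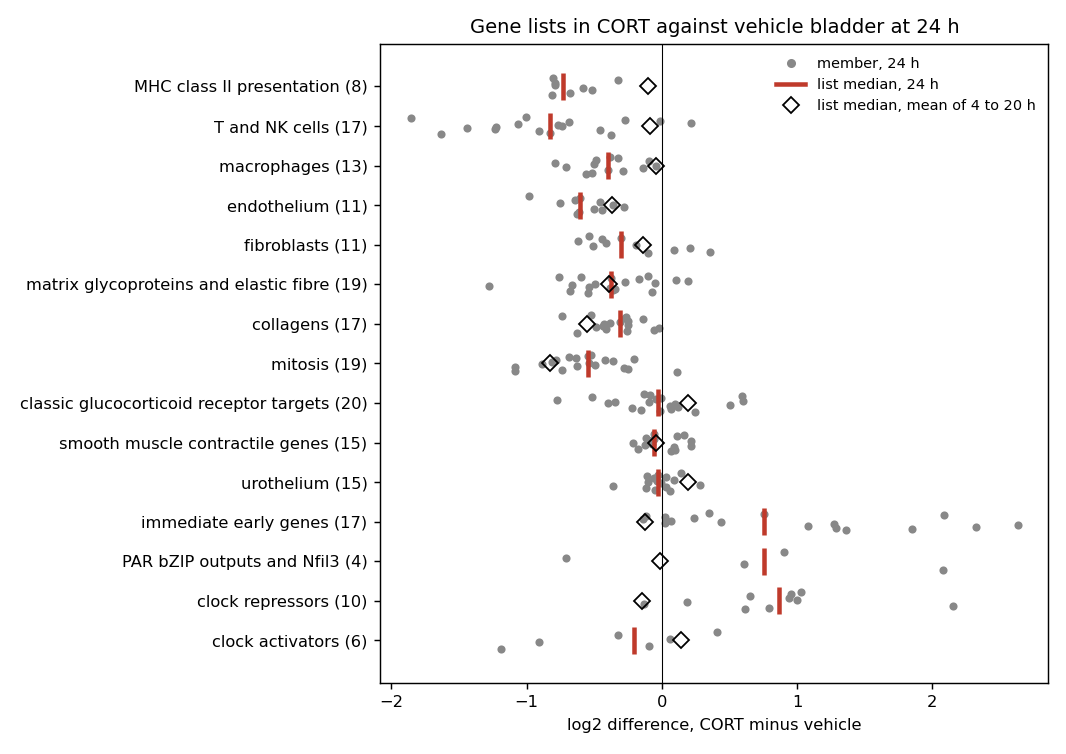
Log2 difference of CORT minus vehicle (x axis) for the tested members of 15 gene lists (rows, number tested in brackets): grey points are single genes at 24 h, red bars the list median at 24 h and open diamonds the list median of the mean difference at 4 to 20 h. The class II bar lies at -0.73 with its diamond at -0.10, and the clock repressor bar at 0.87 with its diamond at -0.14.

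Endothelial genes had negative differences at 24 h, and none passed the test. All 11 were tested and all 11 had a negative difference. The median was -0.60 (-0.37 for the mean of the other 5 times), 7 had an unadjusted p under 0.05 (3.46% of all features, lower) and 6 did not overlap (4.84%). Vwf, the von Willebrand factor of endothelial cells and platelets, stood at 768, 571 and 786 in CORT and 1478, 1408 and 1279 in vehicle (-0.98 ± 0.19, adjusted p = 0.0597). Pecam1, the adhesion molecule CD31, stood at 743, 509 and 703 and 1294, 929 and 1058 (-0.75 ± 0.16, adjusted p = 0.0762). Vehicle replicate 1 was the highest library for both genes, and without it the list median was -0.40. Summed endothelial counts were 3219 to 4668 in CORT and 5724 to 7643 in vehicle.

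Stromal and matrix genes had smaller median differences. Fibroblast markers had a median of -0.30 over 11 genes, with 5 lower at an unadjusted p of 0.05 (3.46% of all features). Pdgfrb, the PDGF receptor of pericytes and fibroblasts, was 941, 715 and 965 in CORT and 1287, 1384 and 1316 in vehicle (-0.62 ± 0.17, adjusted p = 0.262). Pdgfra, its relative in fibroblasts, was 3094, 2076 and 2524 and 3016, 3259 and 3871 (-0.41 ± 0.14, adjusted p = 0.474), and its groups overlapped. Matrix glycoproteins and elastic fibre genes had a median of -0.37 over 19 genes, of which 8 did not overlap, all lower (4.84% of all features), against -0.39 for the mean of the other times. Bgn, the proteoglycan biglycan, was 9554, 8555 and 11384 in CORT and 13585, 14627 and 14627 in vehicle (adjusted p = 0.557), and Thbs2, a matricellular thrombospondin, 3544, 2306 and 4321 and 4696, 5259.6 and 6932 (adjusted p = 0.524). All 17 collagens had a negative difference, with a median of -0.31 at 24 h and -0.55 at the other times, and 1 of 17 did not overlap, a share near the 4.84% of all features. The collagen difference came mainly with CORT replicate 2, whose median against the vehicle mean was -0.68, while replicates 1 and 3 had -0.20 and -0.12. Lox, the enzyme that crosslinks collagen and elastin, was 398, 524 and 970.3 in CORT and 1329, 1119 and 1244 in vehicle (-1.06 ± 0.38, adjusted p = 0.513). Nuak1, a kinase of the AMPK family, had 1 of the smallest p-values that were not called, at 201, 179 and 184 in CORT and 365, 313 and 339.9 in vehicle (-0.85 ± 0.17, adjusted p = 0.0678).

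The clock genes formed the other pattern at 24 h, although no member passed the test. Of the 10 clock repressors tested, 0 were called by limma, 8 had an unadjusted p under 0.05 and were higher in CORT (2.85% of all features), and 5 did not overlap (6.11% of all features). The list median was 0.87. Nr1d2, which encodes REV-ERB beta, stood at 2652, 1339 and 1463 in CORT and 1106, 850.2 and 780.2 in vehicle (0.94 ± 0.20, adjusted p = 0.0792), and Nr1d1, which encodes REV-ERB alpha, at 1729, 740.4 and 761 and 673, 428 and 421 (1.00 ± 0.34, adjusted p = 0.472). Per2 stood at 875, 384 and 437 in CORT and 268, 253 and 296 in vehicle (0.95 ± 0.26, adjusted p = 0.262). Per3, another period gene, stood at 412, 216 and 188 and 136, 109.9 and 131 (1.03 ± 0.29, adjusted p = 0.262). In these 4 genes and in Bhlhe41, which encodes the repressor DEC2 (808, 369.5 and 412 against 344, 284 and 242), every CORT library was above every vehicle library. Per1, the period gene that glucocorticoids induce directly, stood at 897, 348 and 396 in CORT and 275, 310.2 and 369.9 in vehicle (0.66 ± 0.28, adjusted p = 0.698), and Bhlhe40 (DEC1) at 841, 426 and 464 and 513, 281 and 318 (adjusted p = 0.786). In both of these the groups overlapped. Ciart, the repressor CHRONO, was low and scattered, at 61.1, 12.6 and 3.89 in CORT and 5.64, 2.67 and 0.944 in vehicle. The cryptochromes differed least: Cry2 was 608, 417 and 424 and 397, 426 and 431 (0.19 ± 0.13), and Cry1 305, 235 and 236 and 256, 271 and 324 (-0.13 ± 0.20).

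Among the output factors, Dbp (mm10 chr7:45705088-45710203, plus strand) had the largest difference with groups that did not overlap. It stood at 1536, 423 and 458 in CORT and 210.5, 149 and 124 in vehicle (2.08 ± 0.41, adjusted p = 0.0611), and so missed the threshold. It passed with a pseudocount of 4 (adjusted p = 0.0498), a mean of at least 10 (0.0376), an intensity trend (0.0306) or library weights (0.00718), and without CORT replicate 2 (0.0339). Tef stood at 3027, 1475 and 1509 in CORT and 1044, 1038 and 947 in vehicle (0.90 ± 0.23, adjusted p = 0.196). Its vehicle libraries were nearly equal, and its CORT libraries were all higher, replicate 1 by far the most. Hlf, the third PAR bZIP factor, stood at 1358, 380.1 and 438 and 361, 324 and 544 (0.61 ± 0.44), with groups that overlapped. Nfil3, a repressor that binds the same D-box sites, ran the other way, with 78.2, 128 and 118 in CORT and 177, 158 and 187 in vehicle (-0.71 ± 0.32, adjusted p = 0.721), all CORT libraries below all vehicle libraries. Dbp overlaps Sphk2 on the opposite strand, and Tef overlaps Gm17597.

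The activators had lower or similar levels in CORT. Arntl, which encodes BMAL1, stood at 71.3, 211 and 196 in CORT and 279.8, 346 and 366 in vehicle (-1.19 ± 0.36, adjusted p = 0.33). Npas2, a partner of BMAL1, stood at 75.2, 218 and 158 and 229, 279 and 271 (-0.91 ± 0.32, adjusted p = 0.475). Both had their lowest value in CORT replicate 1 and did not overlap between groups. Clock, the other partner, was 2216, 2027 and 2036 and 2275, 2060.2 and 2374 (-0.09 ± 0.09). Of the ROR receptors, which activate Arntl, Rora differed by 0.06 and Rorb by -0.32, neither called. Over the 6 activators the median was -0.21.

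**Figure D3:**
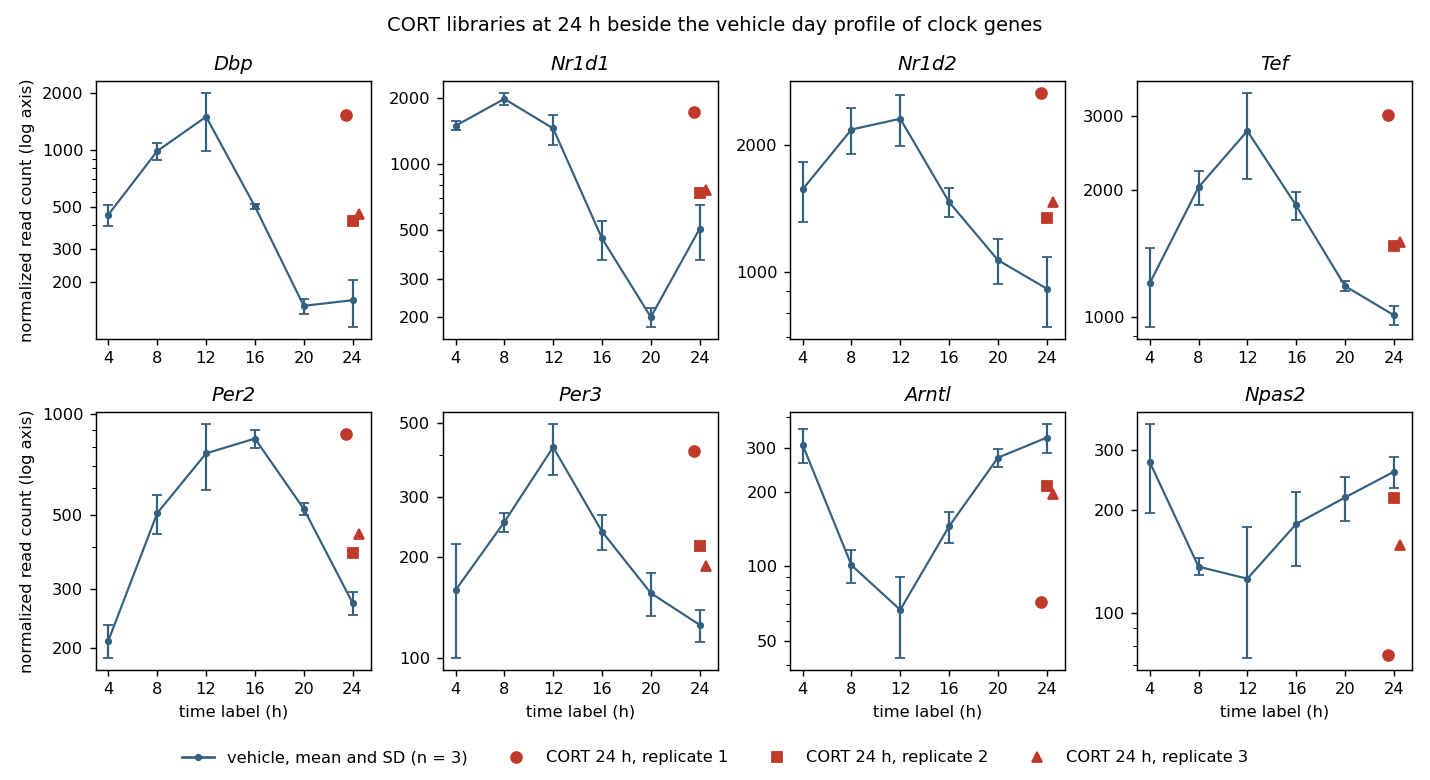
Normalized read counts (y axes, log scale) of 8 clock genes against the time label in hours (x axes): the blue line is the vehicle mean with 1 SD (n = 3), and the 3 red symbols are the CORT libraries at 24 h, set slightly apart for legibility. CORT replicate 1 (circle) lies beyond replicates 2 and 3 in every panel, for Dbp at 1536 against 423 and 458.

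CORT replicate 1 carried much of the size of the clock difference, though not the direction of the repressor median. Against the vehicle mean, the repressor median was 1.53 in CORT replicate 1, 0.43 in replicate 2 and 0.48 in replicate 3. The median SD between replicates of the 20 clock genes was 0.61 on the log2 scale in CORT and 0.19 in vehicle, compared with 0.24 and 0.17 over all features tested. Without CORT replicate 1 the repressor median was 0.52, and the differences were 1.48 for Dbp (adjusted p = 0.281, range over all alternatives 0.00718 to 0.605), 0.63 for Nr1d2, 0.60 for Nr1d1, 0.56 for Tef, 0.23 for Per1 and -0.69 for Arntl. Hlf then differed by 0.03 and Cry2 by 0.01, while Rora and Rorb changed sign, to -0.22 and 0.22. The same library had the lowest urothelial and the highest smooth muscle sums, as given above, and the part of tissue make-up in its clock levels was not tested.

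Placed on the vehicle day, the CORT levels at 24 h corresponded to other times. Mean Dbp in vehicle was 456.3 ± 57.0 at 4 h, 1501 ± 509 at 12 h, its highest mean, 150.3 ± 14.0 at 20 h, and at 24 h it was 161 ± 44.7 (all SD, n = 3). CORT replicate 1 at 24 h, with 1536, was near the vehicle mean of 12 h, and replicates 2 and 3 were near that of 4 h. Arntl ran opposite, with a vehicle mean of 66.6 ± 24.1 at 12 h and 331 ± 45.1 at 24 h. Its level in CORT replicate 1, 71.3, was again near the vehicle mean of 12 h. Arntl in CORT replicates 2 and 3, 211 and 196, lay between the vehicle means of 16 h (145) and 20 h (274) and below that of 4 h (309.6 ± 48.3). Dbp in these libraries also lay between its vehicle means of 16 h (503.6 ± 17.0) and 20 h (150.3), so its level gave no single time. Within CORT, mean Dbp was lowest at 12 h, 225.7 ± 116, and highest at 24 h, 806 ± 633, a mean set by replicate 1, since replicates 2 and 3 were below the CORT means of 626 at 4 h and 649 at 8 h. The median of CORT minus vehicle over the 10 repressors was 0.52 at 4 h, -0.22 at 8 h, -1.20 at 12 h, -0.35 at 16 h, 0.11 at 20 h and 0.87 at 24 h. Without the 8 libraries named in 2 ways those at 4, 8, 16 and 20 h were 0.43, -0.16, -0.28 and 0.23, and mean Dbp at 4 h was 478 in vehicle and 574 in CORT.

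The contrast of the 24 h difference with the mean difference at 4, 8, 12, 16 and 20 h was passed by 3 of 17867 features (0.0168%), while 904 (5.06%) had an unadjusted p under 0.05. Of the 3, Dbp is a clock gene. The difference in Dbp exceeded that mean by 2.66 ± 0.45 (SE, adjusted p = 0.043), since CORT minus vehicle was -0.58 on average at the other times. By time it was 0.43, -0.67, -2.85, -0.84 and 1.02 at 4, 8, 12, 16 and 20 h. Dbp was thus also higher in CORT at 4 and 20 h, and the low average came mainly with 12 h. Without the 8 libraries named in 2 ways the Dbp difference exceeded the mean by 2.60 and was not called (adjusted p = 0.141). Aldh1l2 was then not called either (adjusted p = 0.141), whereas Trem1 was (adjusted p = 0.0298). The remaining clock genes did not pass. Nr1d2 came nearest, at 1.06 ± 0.22 (adjusted p = 0.137), and Nr1d1 had 1.53 ± 0.38 (adjusted p = 0.378). CORT minus vehicle for Nr1d1 was larger at 20 h, 1.595, than at 24 h, 1.00. Named after their values were seen, the other features that passed were Aldh1l2, a mitochondrial enzyme of folate metabolism, and Trem1, a receptor of myeloid cells. Aldh1l2 stood at 50.03, 44.6 and 56.4 in CORT and 49.1, 31.6 and 34.1 in vehicle at 24 h, a difference of 0.41 ± 0.22, while the mean difference at the other times was -0.97 (contrast 1.37 ± 0.24, adjusted p = 0.043). Its groups overlapped at 24 h, where the vehicle mean was the lowest of the vehicle day, 38.3 against 87.1 at 8 h, and the CORT mean, 50.3, was the highest of the CORT times, 22.6 being the lowest at 16 h. Trem1 rested on 1 to 2 reads per library, with 1.03, 1.56 and 1.39 in CORT and 0 in all 3 vehicle libraries. No fold is given for it. Some libraries of other times held 0.0278 to 0.139, values below 1 read that arise from the order of tied low counts. Taken as no read, they would put Trem1 at its minimum in over 50% of libraries, and it would not have been tested.

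The clock promoters here show 2 kinds of element, the E-box bound by BMAL1 with CLOCK and the D-box bound by DBP, TEF and HLF. They are RefSeq windows of GRCm38.p6, 5′ to 3′ up to the base before the start site, with CACGTG in capitals in Ciart, Per1 and Tef and TTATGTAA in capitals in Per3.
Ciart (chr3:95882229-95882378, minus strand): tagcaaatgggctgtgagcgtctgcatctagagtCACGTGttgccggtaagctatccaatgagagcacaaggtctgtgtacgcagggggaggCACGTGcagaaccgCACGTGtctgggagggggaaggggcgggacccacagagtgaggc
Per1 (chr11:69098749-69098948, plus strand): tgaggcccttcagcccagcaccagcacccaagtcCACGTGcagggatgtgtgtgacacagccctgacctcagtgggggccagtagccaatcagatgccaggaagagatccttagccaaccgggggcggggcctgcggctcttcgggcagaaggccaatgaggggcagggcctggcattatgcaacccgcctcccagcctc
Tef (chr15:81802523-81802672, plus strand): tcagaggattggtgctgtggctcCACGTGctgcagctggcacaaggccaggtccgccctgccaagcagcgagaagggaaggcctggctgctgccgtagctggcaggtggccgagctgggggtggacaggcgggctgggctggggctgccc
Per3 (chr4:151044666-151044915, minus strand): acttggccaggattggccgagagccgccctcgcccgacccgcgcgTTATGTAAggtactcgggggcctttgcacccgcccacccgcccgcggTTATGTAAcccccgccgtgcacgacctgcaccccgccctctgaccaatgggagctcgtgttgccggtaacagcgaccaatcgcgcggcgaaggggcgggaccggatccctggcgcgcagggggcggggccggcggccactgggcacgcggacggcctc
The E-box CACGTG was found in 5 of the 17 clock genes with a promoter entry, Per1, Cry1, Ciart, Bhlhe41 and Tef, and in 7.15% of all 32851 windows, searched as a palindrome. Ciart holds 3 matches, beginning 116, 58 and 44 bases before its start. The D-box TTATGTAA was found on either strand in 1 of the 17, Per3, where 2 matches begin 205 and 158 bases before the start, and in 0.938% of all windows. Here too a gene counted if any of its windows held the match, whereas the share over all is of single windows. Tef also held an E-box in a window that is not printed. No entry was matched for Per2 or Bhlhe40.

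No difference was detected in the direct targets of the glucocorticoid receptor at 24 h. All 20 genes of that list were tested, 0 were called by limma, 0 had an unadjusted p under 0.05, and the median was -0.03, while at 4 h the same list had a median of 1.09. Fkbp5, a co-chaperone of the receptor, stood at 407, 539.8 and 518 in CORT and 364, 436 and 582 in vehicle. Its difference was 0.10 ± 0.33, with a 95% interval of -0.58 to 0.78, against 2.19 at 4 h. Tsc22d3, which encodes the anti-inflammatory protein GILZ, stood at 839.6, 596 and 639.5 and 578, 773 and 862, a difference of -0.09 ± 0.28 (95% interval -0.67 to 0.49) against 2.31 at 4 h. In both genes the groups overlapped fully, and the intervals leave out the size seen at 4 h, which without the libraries named in 2 ways was 2.02 and 2.08. The receptor gene Nr3c1 itself stood at 2766, 1726 and 1854 in CORT and 1961, 1928 and 1935 in vehicle (0.09 ± 0.18). Errfi1, a feedback inhibitor of the EGF receptor, had the smallest p of the target list (600.1, 902 and 1066 against 673, 479 and 627, adjusted p = 0.883). Catabolic and FOXO target genes had a median of 0.0049 over 11 genes. The metallothioneins Mt1 and Mt2, which bind zinc and copper, were 392, 425 and 307 and 187, 178 and 179 in CORT and 242, 348 and 217 and 94.9, 144 and 167 in vehicle (adjusted p = 0.883 and 1).

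Immediate early genes, which cells switch on within minutes of a stimulus, divided by replicate rather than by treatment alone. The list median was 0.76 over 17 genes, 7 had an unadjusted p under 0.05 and were higher in CORT (2.85% of all features), 2 of 17 did not overlap (6.11%) and none was called. Against the vehicle mean the median was -0.14 in CORT replicate 1 and 0.90 and 0.90 in replicates 2 and 3. Egr3, a zinc finger factor, stood at 12.7, 25.8 and 50.6 in CORT and 17.1, 1.75 and 2.00 in vehicle (2.33 ± 0.89, adjusted p = 0.586). The vehicle library with the high value was replicate 1, so within replicate numbers the list median was -0.40, 1.16 and 0.69 for replicates 1, 2 and 3. Fosl1, which encodes the AP-1 subunit FRA1, stood at 16.4, 23.9 and 11.5 and 3.56, 6.36 and 10.4 (1.28 ± 0.50, adjusted p = 0.6).

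**Figure D4:**
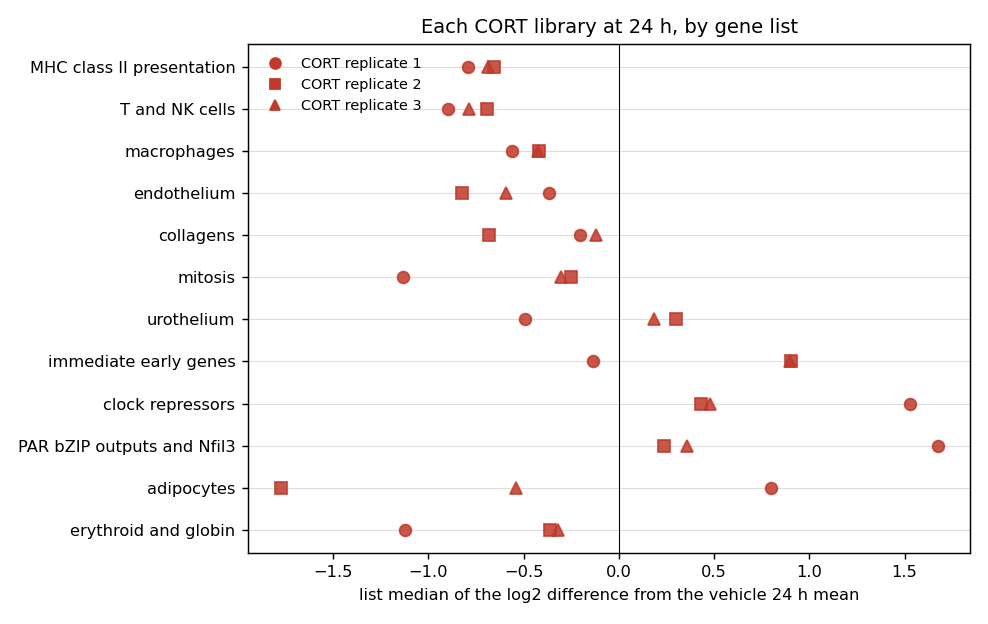
Median over 12 gene lists (rows) of the log2 difference of each CORT library at 24 h from the vehicle mean at 24 h (x axis), with a symbol for each replicate. The 3 libraries nearly coincide for the class II list, between -0.79 and -0.66, and spread for adipocytes, from -1.77 to 0.80.

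Proliferation genes were lower chiefly in 1 library. Mitosis genes had a median of -0.54 over 19 genes at 24 h (-0.83 for the mean of the other times), with 5 of 19 not overlapping (4.84% of all features, lower). In CORT replicate 1 the median against the vehicle mean was -1.14, and in replicates 2 and 3 it was -0.25 and -0.30. Ccna2, cyclin A, stood at 19.4, 29.8 and 16.7 in CORT and 41.2, 43.2 and 55.7 in vehicle (-1.08 ± 0.28, adjusted p = 0.227), and Cdk1, its kinase, at 9.36, 33.8 and 17.9 and 36.6, 34.5 and 31.1 (-0.88 ± 0.31, adjusted p = 0.49). DNA replication genes had a median of -0.04 over 19 genes.

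Among genes of the bladder's own functions, no difference was detected in the contractile and urothelial lists. Smooth muscle contractile genes had a median of -0.06 and urothelial genes -0.03, each over 15 genes, and none of the 30 had groups that did not overlap or an unadjusted p under 0.05. In the urothelial list the CORT libraries disagreed, with medians against the vehicle mean of -0.49, 0.30 and 0.18. Piezo1, a channel that senses stretch, stood at 895, 934 and 876 in CORT and 1179.6, 992 and 942 in vehicle (-0.20 ± 0.16, adjusted p = 1), and Trpv4, another such channel, at 509.5, 973 and 824 and 652, 931 and 756 (-0.06 ± 0.25). Gja1, the gap junction protein connexin 43, differed by -0.03 ± 0.22, and Slc17a9, the vesicular transporter that loads ATP, by -0.02 ± 0.35. Chrm3, the muscarinic receptor that drives bladder contraction, was 466, 191 and 234 in CORT and 340.4, 247 and 367 in vehicle (-0.19 ± 0.56), and Adrb3, the adrenergic receptor that relaxes the bladder, 68.2, 44.6 and 43.7 and 41.9, 41.6 and 49.5 (0.20 ± 0.43). The groups of all 6 of these genes but Piezo1 overlapped. Of the 10 muscarinic and adrenergic receptors tested, 0 were called by limma, 1 had an unadjusted p under 0.05 and 3 did not overlap, all lower (4.84% of all features), with a list median of -0.14. They were low genes: Adrb1 stood at 9.25, 8.81 and 6.17 in CORT and 9.78, 14.4 and 22.7 in vehicle (-0.82 ± 0.34, adjusted p = 0.67) and Adra1d at 5.14, 8.81 and 3.89 and 13.2, 9.81 and 12.2 (-0.93 ± 0.64, adjusted p = 0.952), while Chrm1, named after its values were seen, was under 4 in every library. The 19 genes of ATP release and purinergic signalling had a median of -0.06. Of these, 1 had an unadjusted p under 0.05 in the lower direction (3.46% of all features). Groups did not overlap in 2 of the 19, both lower (4.84% of all features). One was the ATP-gated channel gene P2rx2, at 3.89, 6.39 and 4.61 in CORT and 14.5, 11.1 and 10.7 in vehicle (-1.15 ± 0.58, adjusted p = 0.814). The other, named after its values were seen, was P2rx7, at 265, 207 and 249 and 282, 301 and 284 (-0.27 ± 0.16).

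Among the genes that were higher in CORT without being called, several outside the clock had small differences. Chchd1, a protein of the mitochondrial ribosome, stood at 176, 228 and 200.1 in CORT and 135, 151 and 144 in vehicle (0.48 ± 0.10, adjusted p = 0.0625). Pnpt1, the mitochondrial polynucleotide phosphorylase, stood at 332, 320.0 and 354 and 250.5, 259.6 and 239 (0.42 ± 0.10, adjusted p = 0.175). Uqcc2, an assembly factor of respiratory complex III, stood at 387, 418 and 421 and 312, 347 and 266 (0.41 ± 0.11, adjusted p = 0.245). The rule that named them required groups that do not overlap. Without CORT replicate 1 Chchd1 was called (adjusted p = 0.0398, range over all alternatives 0.0028 to 0.715). Tia1, an RNA-binding protein of stress granules, stood at 251, 236 and 300.1 in CORT and 188, 172 and 190.0 in vehicle (0.51 ± 0.13, adjusted p = 0.227). Shisa2, an inhibitor of Wnt and FGF signalling, stood at 57.8, 47.7 and 53.6 and 30.2, 27.1 and 40.5 (0.70 ± 0.17, adjusted p = 0.165). Zfp955a, a zinc finger gene, Ppcdc, an enzyme of coenzyme A synthesis, Pkp4, a plakophilin of cell junctions, and Smim6 complete the 12 with the smallest p in this direction, with differences of 0.56 ± 0.14, 0.40 ± 0.11, 0.26 ± 0.07 and 1.02 ± 0.28 and adjusted p of 0.165, 0.245, 0.249 and 0.252.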

How the data were processed

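Total RNA of whole bladder was sequenced in 36 libraries, and the 6 at 24 h are compared here. Per the labels' protocols, RNA was depleted of rRNA and a directional kit was used. That protocol text speaks of blood and of globin removal, although all samples are labelled bladder. Per the submitters' processing notes the genome build was mm10; which aligner and counter were used is not given in the sources used here. For each treatment the authors deposited 3 tables of a linear signal (49585 features, 12 libraries per table). These are read counts that were quantile normalized within a table, judged from the sorted values, which are identical in all libraries of 1 table. Tables of log2 values that the authors deposited for selected genes served only to check column names. In 8 of their replicate 2 columns, none at 24 h, another library is held than the full tables name. In all, 108 value columns were read, and 13 features carry a number in place of a name.

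Each library's ranked values were replaced by the mean of the sorted sets of the 6 tables, which gives 1 scale, and were analysed as log2(value + 1); this understates differences of low genes. A feature was left out where over 50% of libraries held their minimum. limma 3.58.1 (R 4.3.3) fitted 1 mean per group to the 36 libraries (24 residual degrees of freedom) for 2 contrasts: CORT minus vehicle at 24 h, and that difference minus its mean at the other 5 times. P-values were adjusted by Benjamini-Hochberg at 0.05. The rebuilding of the scale and the test were tested on simulated data. An exact permutation test of 3 libraries against 3 cannot go below p = 0.1. The rule for named genes took, per direction, the 12 called genes with the largest differences, filled up with the smallest p where fewer were called (groups not overlapping, mean of at least 10, predicted genes and pseudogenes left out). It added all core clock and PAR bZIP genes, the called members of each other list up to 4 or else the 2 with the smallest p, the 6 smallest p of the second contrast, and 10 preset steroid response and bladder function genes. Results for 2 of these genes are not reported here. The members and the 44 gene lists were chosen with earlier results of these data known. Positions are from GENCODE for mm10, which held 47121 of the 49585 feature names, and 57 of the 128 named genes are overlapped by another annotated gene. Alternatives changed the libraries fitted, the filter, the pseudocount, the scale, the variance model, the library weights and the replicate block.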

Additional observations from a re-analysis of the deposited data

Results flagged for a closer look

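For 3 genes the CORT minus vehicle difference at 24 h departed from the mean difference at the other 5 times by limma's test of that contrast. Dbp exceeded it by 2.66 on the log2 scale (adjusted p = 0.043), with the 3 CORT libraries at 1536, 423 and 458 and the vehicle libraries at 210.5, 149 and 124. Aldh1l2 exceeded it by 1.37 (adjusted p = 0.043), the difference being 0.41 at 24 h, where the groups overlapped, and -0.97 on average at the other times. Trem1 exceeded it by 2.00 (adjusted p = 0.045), with 1.03, 1.56 and 1.39 normalized reads in CORT and 0 in vehicle at 24 h, which is the level of 1 or 2 reads, so this fitted value depends on the pseudocount and is no fold. Trem1 was tested only through tied low counts, as given above. For Dbp, CORT minus vehicle was also positive at 4 h (0.43) and 20 h (1.02), and it was lowest at 12 h (-2.85). Without the 8 libraries that the tables name in 2 ways only Trem1 passed. The count of such features was 0 without CORT replicate 1, without CORT replicate 3, without vehicle replicate 2, and without both libraries of any 1 replicate number.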

How the results depend on the processing

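The count of features called at 24 h, 6, was 0 on the 6 libraries alone, 17 with a mean of at least 10, 2 on the authors' scale of each treatment, 10 with an intensity trend and 206 with library weights. Without 1 library or 1 replicate number it ranged from 0 to 9, with 0 without CORT replicate 3, vehicle replicate 1 or vehicle replicate 3 and without any 1 replicate number. The count for the contrast with the other 5 times, 3, was 1 without the 8 libraries named in 2 ways, 0 with no filter on low values, 1 with an intensity trend and 54 with library weights, and 0 to 2 without 1 library or replicate number. The list members called, 3, were 0 on the 6 libraries alone, 5 with a pseudocount of 4, 5 with a mean of at least 10, 1 on the authors' scale, 5 with a trend and 22 with library weights, and 0 to 5 without 1 library or replicate number. The cause was not tested, other than that fewer samples or features enter some fits.

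The replicate numbers were not treated as pairs in the main fit. Deviations of same-numbered CORT and vehicle libraries correlated at 0.149, 0.241 and -0.041 for replicates 1, 2 and 3. CORT replicates 1 and 2 correlated best with the vehicle library of their own number, and CORT replicate 3 did not. With 3 libraries per group these values cannot decide whether same-numbered libraries were handled together. With a replicate block 10 features were called at 24 h, the 6 and Dbp (adjusted p = 0.0184) among them, 2 for the contrast and 5 among list members. Differences of genes that were not called changed sign under some settings. With library weights they were Rorb 0.26, Rora -0.10, Mylk -0.0041, Nr3c1 -0.041, Trpv4 0.055, Gja1 0.027 and Slc17a9 0.16, and on the authors' scale Cirbp 0.055, Trpv4 0.013 and Gja1 0.038. Without 1 library or replicate number, ranges that crossed 0 were Rorb from -0.76 to 0.22, Rora from -0.30 to 0.27, Cry2 from -0.026 to 0.29, Cry1 from -0.33 to 0.028, Hlf from -0.042 to 1.07, Bnip3 from -0.070 to 0.45, Nr3c2 from -0.00056 to 0.45, Mylk from -0.036 to 0.44 and Krt20 from -0.57 to 0.062. They were Sqle from -0.053 to 0.42, Cyp51 from -0.15 to 0.41, Herpud1 from -0.053 to 0.32, Rbm3 from -0.041 to 0.30, Cirbp from -0.16 to 0.083, Hba-a2 from -1.29 to 0.21, Hba-a1 from -1.18 to 0.15, Fabp4 from -0.57 to 0.20 and Rpl27 from -0.029 to 0.49 for the next genes, and Nr3c1 from -0.12 to 0.22, Fkbp5 from -0.055 to 0.28, Tsc22d3 from -0.40 to 0.081, Trpv4 from -0.25 to 0.22, Gja1 from -0.29 to 0.18, Slc17a9 from -0.30 to 0.13, Chrm3 from -0.57 to 0.074 and Adrb3 from -0.040 to 0.39 for the rest. No called gene changed sign under any alternative run. Outside the leave-one-out fits, list medians moved by more than their spread in 7 cases and stayed in 466, and single genes kept their direction and call in 1389 cases, gained a call in 51 and lost one in 22. Normalized values do not give the depth of a single library, and low genes are measured with few reads.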

Other observations

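The gene lists described here held no called member by limma, and the median over all features tested was 0.02. Cholesterol synthesis genes had a median of 0.03 over 20 genes, with Sqle, squalene epoxidase, at 0.15 ± 0.18 and Cyp51, lanosterol demethylase, at 0.15 ± 0.19. Fatty acid oxidation had 0.05 over 14, with Acaa2, a mitochondrial thiolase, at 0.11 ± 0.09 and the low Cpt1b at 6.17, 5.03 and 0 in CORT and 0.333, 0 and 1.92 in vehicle. Genes of ER folding had 0.03 over 18, with Atf4 at 0.18 ± 0.15 and Herpud1 at 0.17 ± 0.17, and heat shock genes 0.12 over 11, of which 4 did not overlap and were higher (6.11% of all features) and 1 had an unadjusted p under 0.05. Hspe1, the mitochondrial co-chaperonin, was 426, 467 and 481 in CORT and 317, 369.5 and 364 in vehicle (0.39 ± 0.15, adjusted p = 0.593), and Hsf1, the heat shock factor, 368, 345 and 331 and 321, 325 and 313 (0.12 ± 0.10). The cold-inducible RNA-binding genes Rbm3 and Cirbp differed by 0.15 ± 0.17 and -0.02 ± 0.19. Mitochondrially encoded genes had 0.19 over 13, with mt-Co1, a subunit of cytochrome oxidase, at 80179, 80179 and 80179 and 69029, 63166 and 69029 (0.26 ± 0.11, adjusted p = 0.696) and mt-Cytb at 0.34 ± 0.18; the scale gives such top ranks few distinct values. Ribosomal protein genes had 0.09 over 21, with Rpl23 at 0.23 ± 0.17 and Rpl27 at 0.24 ± 0.24. Clock kinases and ubiquitin ligases had 0.03 over 10, with Wee1 and Usp2 at 0.33 ± 0.16 and 0.95 ± 0.46.

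The IGF axis had a median of -0.12 over 13, and Igfbp7 was 3499, 3105 and 3174 in CORT and 4658, 4567 and 3841 in vehicle (-0.41 ± 0.14, adjusted p = 0.405), with Igf2 at -0.37 ± 0.14. TGF-beta genes had -0.08 over 15; Smad6 was 318, 288 and 346 in CORT and 417, 428 and 422 in vehicle. Prph, a filament of peripheral neurons, was 14.7, 9.50 and 12.8 in CORT and 164, 14.0 and 16.0 in vehicle, and Tubb3 1.89, 0 and 2.44 and 22.8, 2.36 and 2.75, and vehicle replicate 1 was the highest library in both. Hba-a1 of haemoglobin was 159.7, 227 and 279.5 in CORT and 826, 227 and 225.7 in vehicle, and Hba-a2 284, 466 and 596 and 1698, 469 and 445, again with vehicle replicate 1 highest. Fabp4 and Lipe of adipocytes differed by -0.27 ± 0.31 and -0.50 ± 0.25. Tcap of striated muscle was 83.3, 8.64 and 3.61 in CORT and 3.89, 3.36 and 1.53 in vehicle, high in CORT replicate 1 alone, and Actn3 35.8, 45.5 and 37.3 and 16.0, 30.9 and 24.8 (0.74 ± 0.24, adjusted p = 0.394). Other listed genes with their differences were Col6a3 -0.74 ± 0.36, Col12a1 -0.63 ± 0.31, Loxl3 -0.41 ± 0.23, Rrm2 -0.40 ± 0.26, Ccne1 0.64 ± 0.46, Krt5 0.28 ± 0.22, Krt20 -0.36 ± 0.27, Des 0.21 ± 0.18 and Mylk 0.21 ± 0.23. For receptors and immune genes they were Nr3c2 0.30 ± 0.20, Esr1 -0.25 ± 0.14, P2ry6 -0.41 ± 0.20, Rsad2 -0.82 ± 0.26, Oas1a 0.87 ± 0.37, Anxa1 0.19 ± 0.13, Tslp -0.73 ± 0.46, Mmp9 -0.23 ± 0.20 and Bnip3 0.27 ± 0.21. Asic3, an acid-sensing channel, had 3.5, 0.778 and 0.861 in CORT and 1.11, 0 and 0 in vehicle. None of the genes named in these paragraphs passed limma's test at 24 h.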
